A study of Mus musculus with 9 samples.

Results

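Motile cilia and axonemal genes encode the moving cilia of the airway surface and the factors that build them. They were taken by name: gene symbols of the axonemal dyneins (Dnah, Dnaic, Dnali), dynein assembly factors (Dnaaf), cilia and flagella associated proteins (Cfap), radial spoke proteins (Rsph) and tektins (Tekt), and 8 single genes (Foxj1, Rfx2, Rfx3, Mcidas, Tppp3, Hydin, Spag6 and Spef2). Of 74 rows with such names among the 21983 gene rows of the count table, 70 had 10 or more counts in at least 3 of the 9 libraries and were kept, without use of any comparison. All 70 passed the filter on low counts and were among the 14739 genes tested. Just inside the limit lay Dnah14 (10 or more counts in 5 libraries, 4 to 16 counts) and Mcidas (8 libraries, 7 to 40 counts). Outside it lay Spag6 (2 libraries, 2 to 16 counts), Cfap97d1 (1 library, up to 10 counts), Rsph6a (up to 2 counts) and Dnah12, which was listed at 0 in all 9 libraries. A row at 0 in this table can be a limit of the counting and does not show that a transcript was absent.

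The libraries were made from lung RNA of inbred BALB/c mice, 3 for each of 3 groups. Control mice were normal mice given saline by mouth from day 14. Asthma mice were mice of a chronic asthma model given the same saline. BSYQF mice were asthmatic mice fed a herbal mixture of Chinese medicine, Bu-Shen-Yi-Qi formula, from day 14 for 6 weeks at 20 g of raw herbs per kg. The sources used here give no age, sex or method of inducing asthma. The labels number the libraries as replicates without tying each to its own mouse, and p-values then reflect only library-to-library spread, which may be technical. Libraries held 16286385 to 22819199 counts, and the 70 genes took 0.156% to 0.227% of them. Markers of the lung were present throughout: club cell markers summed to 30412 to 57765 and alveolar type 2 cell markers to 20861 to 32170 CPM per library (CPM are counts divided by TMM-scaled library size, in units of 1e6). Asthma replicate 2 stood apart, with 10.3% of its counts from mitochondrial genes where the other libraries had 2.19% to 6.53%. The first principal component, the main axis of spread over all genes tested, took 51.6% of the variance. Asthma replicates 1, 2 and 3 lay on it at 51.9, 76.0 and 1.77, and the controls at −56.7 to −43.2. BSYQF replicates 1, 2 and 3 lay at 40.5, 1.20 and −19.6.

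A motile cilium beats because dynein arms pull neighbouring doublet microtubules of the axoneme past each other, while radial spokes and the central pair regulate the stroke. In the lung these cilia sit on multiciliated cells of the airway lining, interspersed with club and goblet cells, and move mucus towards the throat. Multicilin (Mcidas) starts the multiciliated fate, the forkhead factor Foxj1 switches on the genes of motile cilia, and the RFX factors, which bind a paired DNA element called the X-box, act with it. In whole lung RNA, more or fewer ciliated cells and more or less RNA per ciliated cell cannot be told apart.

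Letters of the X-box core were searched before the starts of these genes. RefSeq start sites on GRCm38.p6 were at hand for 56 of the 70 genes, with 63 windows of 250 bases before a start. The core GTTGCC, on either strand, lay in 22 of the 63 windows (34.9%), against 10.4% of 32851 such windows over all genes. An inverted repeat of GTTGC with any 3 bases between its arms, here called the pair, lay in 8 (12.7%) against 0.207% of all windows, in Dnah6, Dnah7a, Dnah7b, Dnah7c, Dnaic2, Tekt2 and Tekt4, and the 3 Dnah7 genes are close copies. This pair was chosen after windows had been read, so its 2 shares are no test of an excess, and it can overlap GTTGCC. The 3 Dnah7 genes are counted among the windows with GTTGCC as well. The longer X-box consensus with both arms was found in 1 window, before Cfap298 (1.59% against 0.374%). The forkhead letters GTAAACA were found in 4 windows, of Cfap20, Cfap43, Dnah17 and Tekt3 (6.35% against 3.17%). A match is a description of letters and not a bound site. Windows of 4 genes of dynein chains and tektins are shown because 2 of them (Dnali1 and Tekt4) were called in asthma and the other two lay just outside the threshold. The windows of Dnaic2 and Dnali1 are cut where an annotated exon begins, and those of Tekt1 and Tekt4 are whole. Each runs 5′ to 3′ on the gene's strand and has GTTGCC on either strand and the pair in capitals. Dnaic2 (chr11:114727169-114727407, plus strand) holds a pair that starts 33 bases before the RefSeq start. Tekt4 (chr17:25471340-25471589, plus strand) holds one 36 bases before its RefSeq start, which lies 16975 bases downstream of the GENCODE gene start. Tekt1 (chr11:72361883-72362132, minus strand) has single cores at 35 and 15 bases. The RefSeq start of Tekt1 also lies inside the GENCODE gene span, so these 2 windows precede internal starts. In Dnali1 (chr4:125065704-125065907, minus strand) neither was found in the bases shown.
Dnaic2: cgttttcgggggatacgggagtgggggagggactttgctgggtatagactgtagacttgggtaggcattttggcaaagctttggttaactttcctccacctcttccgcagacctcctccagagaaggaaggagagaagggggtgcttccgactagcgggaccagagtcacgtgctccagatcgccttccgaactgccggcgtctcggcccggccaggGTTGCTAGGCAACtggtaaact
Tekt4: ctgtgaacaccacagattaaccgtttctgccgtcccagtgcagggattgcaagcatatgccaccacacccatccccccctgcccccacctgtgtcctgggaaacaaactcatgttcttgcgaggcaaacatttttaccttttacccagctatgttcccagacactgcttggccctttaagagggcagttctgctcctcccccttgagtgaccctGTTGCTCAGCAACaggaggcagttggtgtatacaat
Tekt1: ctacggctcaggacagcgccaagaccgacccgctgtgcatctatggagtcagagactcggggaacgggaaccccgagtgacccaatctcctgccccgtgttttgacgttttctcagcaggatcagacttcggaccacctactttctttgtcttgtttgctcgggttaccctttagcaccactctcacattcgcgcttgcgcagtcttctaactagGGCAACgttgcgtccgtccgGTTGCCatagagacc
Dnali1: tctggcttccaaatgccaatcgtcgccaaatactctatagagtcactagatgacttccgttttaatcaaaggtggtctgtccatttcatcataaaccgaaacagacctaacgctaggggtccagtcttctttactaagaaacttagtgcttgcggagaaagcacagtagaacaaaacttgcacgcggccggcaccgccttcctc

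Asthma was first set against control, for the effect of the disease model. Foxj1, Dnali1, Rsph1, Tekt4, Cfap126, Cfap157 and Cfap100 rose, by 1.80-fold to 2.58-fold, and no member fell. These 7 of 70 genes (10%) stand beside 8.23% of all genes tested that were called higher, so the share of calls was close to that of the table as a whole. The calls given below for each role group are to be read beside the same 8.23%. Calls are from edgeR's quasi-likelihood test, with p-values adjusted by Benjamini-Hochberg over all 14739 genes and a threshold of 0.05, and 4.45% of genes were called lower. Of all 70 members, called ones included, 60 had a fitted log2 fold change above 0 (85.7%), against 51.2% of all genes. The median over all 70 was 0.40, or 1.32-fold, against 0.02 for all genes. At an unadjusted p under 0.05, 22 members were higher (31.4%, all genes 19%) and 0 lower (all genes 15.1%). The 3 asthma libraries lay above all 3 controls in 18 members (25.7%, all genes 22%) and below them in 0 (all genes 18.4%).

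**Figure D1:**
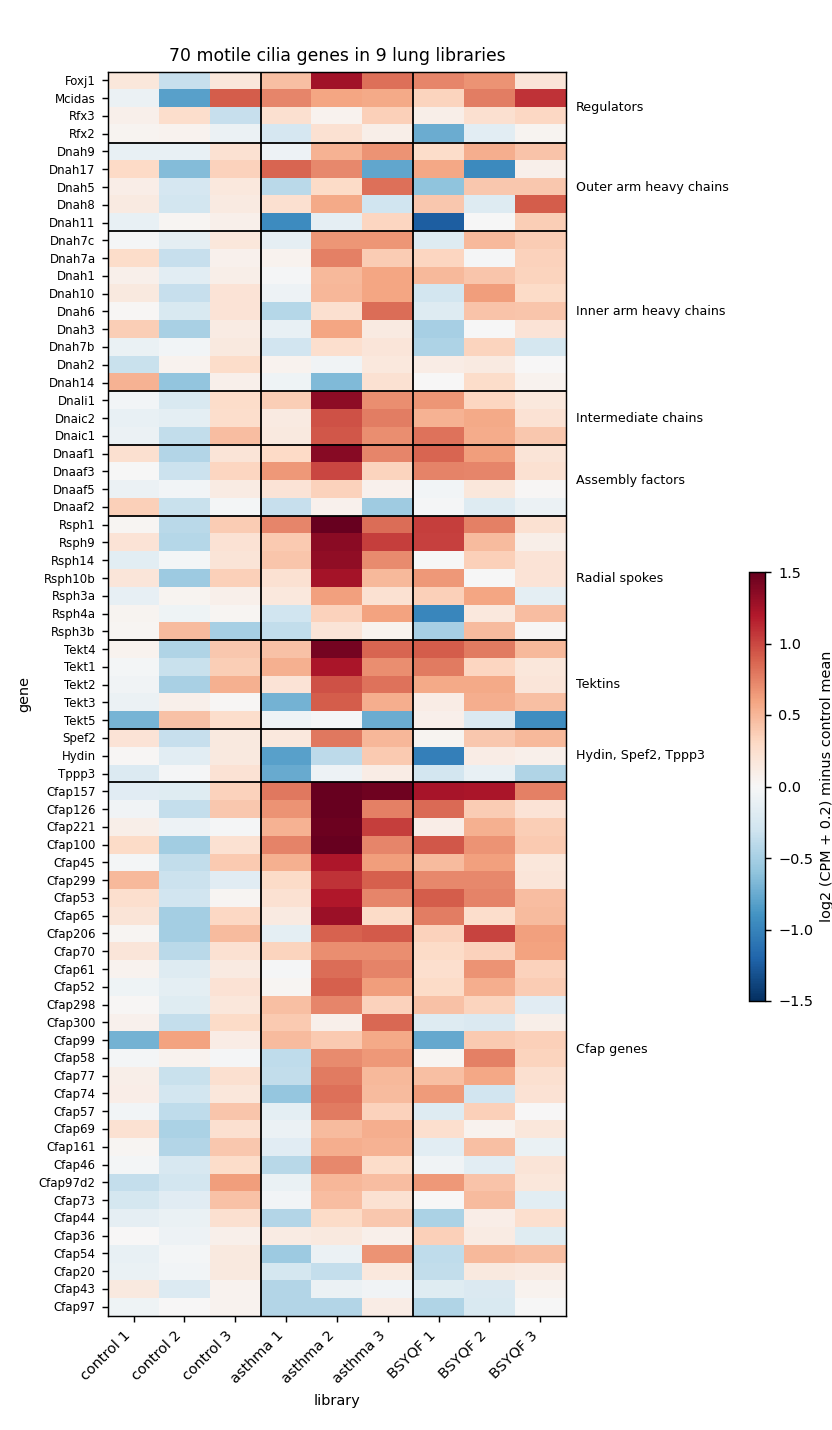
Heat map of the 70 genes (rows, grouped by role) in the 9 libraries (columns), as log2 of CPM plus 0.2 minus the control mean. Asthma replicates 2 and 3 are red in most rows, asthma replicate 1 is mixed, and control replicate 2 is mostly blue.

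The rise was unequal among the asthma libraries. In asthma replicates 2 and 3, 53 of the 70 genes lay above all 3 controls in each (75.7%, against 41.9% and 33.3% of all genes tested). In asthma replicate 1 the number was 22 (31.4%, all genes 38.3%), while 19 lay below all controls (27.1%, all genes 38.2%). Averaged over the members, the log2 level was 0.04, 0.65 and 0.47 above the control mean in asthma replicates 1, 2 and 3, and the controls themselves lay at 0.02, −0.22 and 0.20. By this mean asthma replicate 1 was inside the range of the controls, while its 22 genes above and 19 genes below all controls lay outside it. Of the 70 genes, 36 had their highest level in asthma replicate 2, and 34 had their lowest in control replicate 2. These extremes were not counted over all genes tested, so they cannot be read as particular to the members. The number of calls moved with single libraries, in the members and in the table as a whole. Without control replicate 1, control replicate 2 or asthma replicate 2, 0 members were called (all genes 2.08%, 0.95% and 1.38% higher). Without control replicate 3, asthma replicate 1 or BSYQF replicate 2, 1 was called (1.43%, all genes at most 4.55%). Without asthma replicate 3 the number was 11 (15.7%, all genes 14.8%). These shifts in number can therefore not be read as particular to the members. The median log2 fold change stayed between 0.26 and 0.53 in these fits.

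Of the 4 regulators, Foxj1 rose and the other three did not pass. Foxj1 had 127, 88.3 and 127 CPM in control replicates 1, 2 and 3, 154, 270 and 198 CPM in asthma, and 186, 179 and 129 CPM with BSYQF. The asthma libraries lay above the controls without overlap, with replicate 2 the highest. The log2 fold change was 0.86 ± 0.23 (SE; adjusted p = 0.0394, edgeR). Rfx3 and Rfx2, which bind the X-box, had values of 0.20 ± 0.20 and 0.03 ± 0.22 (adjusted p = 0.493 and 0.927). Mcidas, the inducer of the multiciliated fate, was low, at 0.41 to 1.81 CPM in control and 1.39 to 1.58 CPM in asthma, with a value of 0.52 ± 0.56 (adjusted p = 0.532). Its groups overlapped, and 3 counts correspond to 0.134 to 0.202 CPM.

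The dynein heavy chains are the motor subunits. None of the 5 outer arm chains (Dnah5, Dnah8, Dnah9, Dnah11 and Dnah17) or the 9 inner arm chains was called in either direction, and none had an unadjusted p under 0.05. Their median log2 fold changes were 0.31 and 0.30. Dnah5, a main motor of the outer arm, had 65.9, 51.6 and 68.7 CPM in control and 46.3, 75.0 and 109 CPM in asthma. Asthma replicate 1 was below every control and replicates 2 and 3 above every control, so the groups overlapped (0.31 ± 0.32, adjusted p = 0.513). Dnah9, which joins Dnah5 in the outer part of the cilium, had 27.4, 27.5 and 34.8 CPM against 28.2, 42.8 and 47.6 CPM (0.40 ± 0.20, adjusted p = 0.175). In the inner arms, Dnah1 and Dnah10 had values of 0.38 ± 0.20 and 0.35 ± 0.26 (adjusted p = 0.209 and 0.359). Dnah7a, Dnah7b and Dnah7c are close copies whose shared reads may be split by the counting.

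Among the 3 intermediate and light intermediate chains, 1 was called. Dnali1, a light intermediate chain of the inner arms, had 28.5, 24.9 and 35.4 CPM in control and 37.8, 74.5 and 47.6 CPM in asthma. All asthma libraries exceeded all controls, and the gene rose by 0.85 ± 0.25 (adjusted p = 0.0477). The outer arm intermediate chains Dnaic2 (0.65 ± 0.23, adjusted p = 0.0752) and Dnaic1 (0.59 ± 0.27, adjusted p = 0.145) did not pass. Dynein arms are assembled in the cytoplasm by Dnaaf proteins before they enter the cilium. None of the 4 measured genes of this family was called, with Dnaaf1 at 0.85 ± 0.31 (adjusted p = 0.0844), Dnaaf3 at 0.67 ± 0.25 (adjusted p = 0.0918), Dnaaf5 at 0.21 ± 0.14 and Dnaaf2 at -0.29 ± 0.26. Exons of other genes cover 71.4% of the exonic bases of Dnaaf2, with 1313 bases on the same strand, 20.7% of those of Dnaaf1 and 16.5% of those of Dnaaf3, and strand handling in the counting is not given in the sources used here.

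Radial spoke genes held 1 call among 7, with a median log2 fold change of 0.68. Rsph1, a protein of the spoke head, had 31.4, 23.2 and 40.1 CPM in control, 51.3, 92.1 and 55.1 CPM in asthma and 63.6, 52.2 and 36.1 CPM with BSYQF. The asthma libraries did not overlap the controls, and it rose by 1.07 ± 0.28 (adjusted p = 0.0380). Rsph9, another spoke head protein, had 16.6, 10.7 and 16.8 CPM against 19.0, 37.2 and 29.8 CPM, again without overlap, but did not pass (0.96 ± 0.30, adjusted p = 0.0585). Rsph14, of the same family, was at 0.89 ± 0.30 (adjusted p = 0.0705).

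Tektins are filaments inside the doublet microtubules, and 1 of the 5 was called. Tekt4 had 15.2, 10.7 and 19.5 CPM in control, 19.9, 40.2 and 27.1 CPM in asthma and 27.7, 25.3 and 20.7 CPM with BSYQF. The lowest asthma library stood just above the highest control. It rose by 0.94 ± 0.28 (adjusted p = 0.0496), at the edge of the threshold. Tekt1 (0.82 ± 0.25, adjusted p = 0.0538) and Tekt2 (0.64 ± 0.30, adjusted p = 0.150) did not pass. Tekt3 was at 0.45 ± 0.53, and Tekt5 on the other side of 0 at -0.34, with 3.02, 6.90 and 6.06 CPM in control and 4.81, 4.97 and 2.91 CPM in asthma, which overlapped.

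The 30 Cfap genes held 3 calls and had a median of 0.41, with 27 values above 0. Cfap157, a protein of the basal body region, had the largest fitted change of all members. Its levels were 5.24, 5.21 and 7.55 CPM in control, 10.4, 19.6 and 16.6 CPM in asthma and 14.2, 14.1 and 10.1 CPM with BSYQF. Both groups of asthma-model mice lay above all controls, and the change against control was 1.37 ± 0.28 in asthma (adjusted p = 0.0178). Cfap126, which helps to place basal bodies, had 24.2, 19.5 and 33.1 CPM in control and 39.9, 85.6 and 42.5 CPM in asthma. Replicate 2 was far above the other two, and the gene rose by 1.13 ± 0.31 (adjusted p = 0.0415). Cfap100, which acts on the inner dynein arms, had 11.3, 6.37 and 10.9 CPM against 15.6, 26.4 and 15.5 CPM and rose by 1.002 ± 0.29 (adjusted p = 0.0469). Cfap221, a protein of the central pair, lay just outside the threshold (1.11 ± 0.33, adjusted p = 0.0505).

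**Figure D2:**
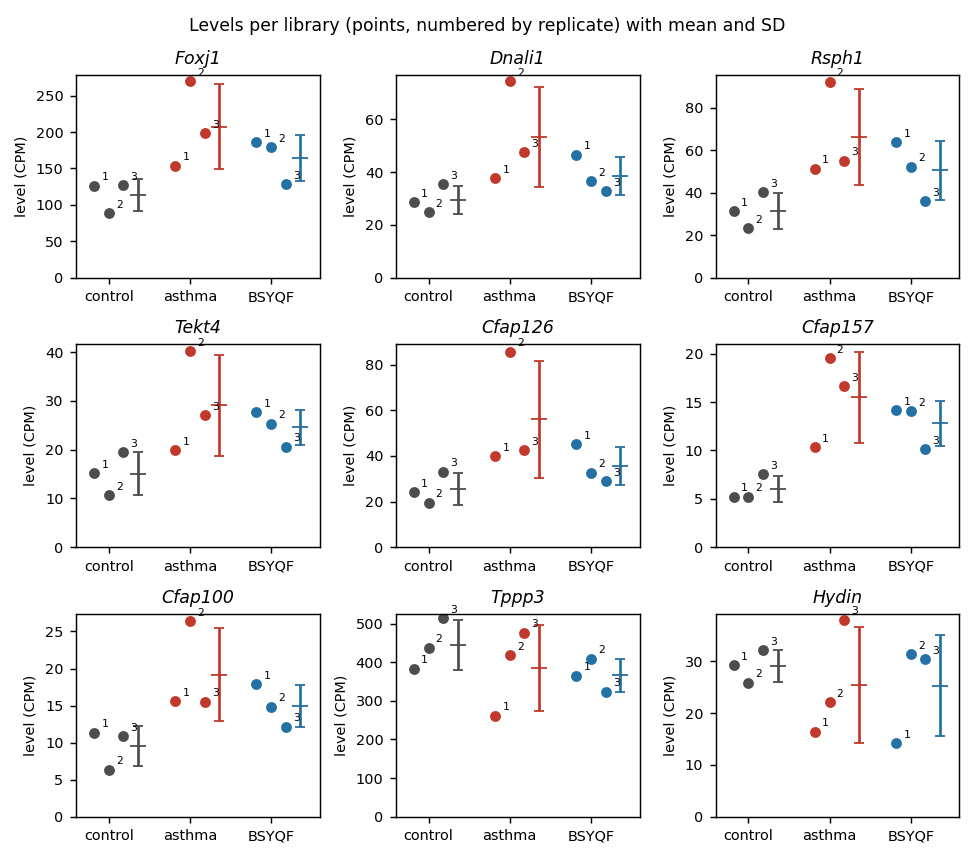
Level in CPM of the 7 called genes and of Tppp3 and Hydin in each library, with points numbered by replicate and bars for mean and SD over 3 libraries. In the 7 called genes the 3 asthma points lie above the 3 control points, with replicate 2 the highest, while the groups overlap in Tppp3 and Hydin.

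In mm10 coordinates of GENCODE vM21 the 7 called genes are all annotated as protein coding. Foxj1 (chromosome 11, 116330704 to 116335399) and Dnali1 (chromosome 4, 125055338 to 125065703) are on the minus strand. Chromosome 17 holds Tekt4 from 25454615 to 25476602 (plus strand) and Rsph1 from 31255019 to 31277383 (minus strand). Cfap126 (chromosome 1, 171113918 to 171126967) is on the plus strand. Cfap157 (chromosome 2, 32777381 to 32784428) and Cfap100 (chromosome 6, 90403479 to 90428797) are on the minus strand. The authors' deposited table for asthma against control, which lists genes past a log2 fold change of 1, held 4 members, all higher: Cfap157 (1.34), Cfap126 (1.10), Cfap221 (1.09) and Rsph1 (1.04).

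Of the 70 members, 10 had a fitted value below 0, none with an unadjusted p under 0.05: Tekt5, Dnaaf2, Dnah14, Cfap97, Tppp3, Cfap43, Hydin, Dnah11, Cfap20 and Rsph3b, from -0.34 to -0.07. Tppp3, a tubulin-binding protein and the most abundant member per length (216 CPM per kilobase of exon, averaged over all libraries), had 383, 438 and 513 CPM in control, 262, 418 and 477 CPM in asthma and 365, 409 and 324 CPM with BSYQF. The groups overlapped (-0.21 ± 0.22, adjusted p = 0.535). Tppp3 is also known from cells other than ciliated cells. Hydin, a protein of the central pair, had 29.3, 25.9 and 32.2 CPM in control and 16.4, 22.1 and 38.1 CPM in asthma, with asthma libraries on both sides of the controls (-0.19 ± 0.33, adjusted p = 0.718). Spef2, also of the central pair, lay above 0, at 0.49 ± 0.23 (adjusted p = 0.162). The next most abundant members per length were Foxj1 (61.7 CPM per kilobase), Cfap298 (38.3), Rsph1 (36.05) and Cfap126 (22.01), and the median member had 3.57.

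**Figure D3:**
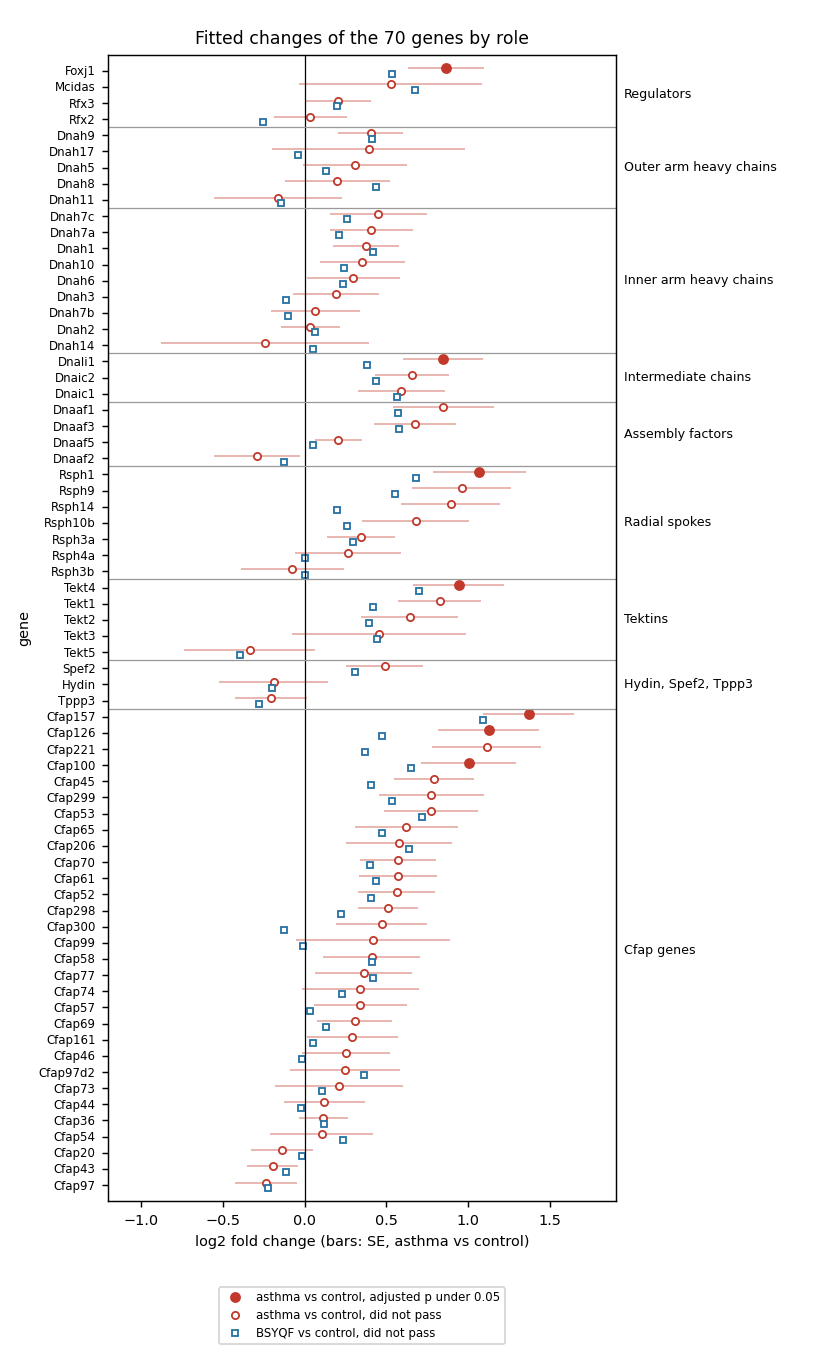
Fitted log2 fold changes of the 70 genes by role, for asthma against control (circles, bars of 1 SE, filled where the adjusted p is under 0.05) and BSYQF against control (squares). Most circles lie right of 0, the 7 filled ones at 0.85 to 1.37, and both sets share the control libraries.

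The size of the difference went with the length of the gene's exons, in these genes and in the table as a whole. The length groups were chosen after the data had been seen. The 27 members with under 3 kb of exon had a median log2 fold change of 0.64, the 17 of 3 to 6 kb 0.34, the 8 of 6 to 10 kb 0.28 and the 18 of over 10 kb, which include the dynein heavy chains, 0.25. Over all genes tested the medians in the same length groups were 0.27, 0.02, −0.15 and −0.30. In each length group the median of the motile cilia genes lay above that of all genes. Across the 70 genes Spearman's rho of the change with exon length was −0.50, and across 14683 genes with a length it was −0.32, as a description over genes that share the same libraries. In asthma replicate 1, members under 3 kb lay 0.37 above the control mean by their median. Those of 3 to 6 kb lay at −0.10, those of 6 to 10 kb at −0.34 and those over 10 kb at −0.07. The part of length in these medians and in the single calls was not tested, and 6 of the 7 called genes have under 3 kb of exon.

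**Figure D4:**
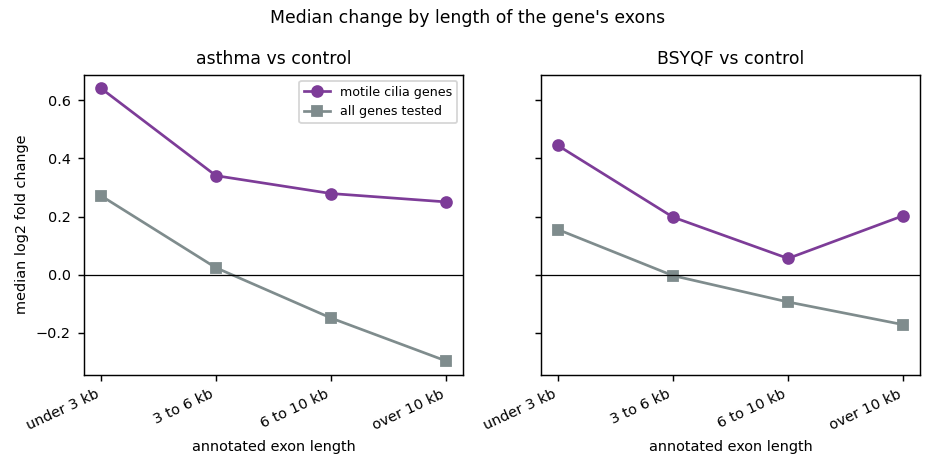
Median log2 fold change (y axis) of the motile cilia genes and of all genes tested in 4 groups of exon length (x axis), for asthma and for BSYQF against control. Both lines fall from short to long genes in asthma, from 0.64 to 0.25 and from 0.27 to −0.30, and the motile cilia genes lie above all genes in each group.

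Other ciliary genes were read from lists apart from the 70. Of 42 other motile cilia genes tested, 8 rose and 0 fell in asthma against control (all genes 8.23% and 4.45%), with a median log2 fold change of 0.64. These were Ccdc65, Ccdc153, Sntn, Pifo, Cdhr4, Wdr63, Tctex1d4 and Odf3b. The 4 with the smallest p-values were Tctex1d4 (1.24 ± 0.28), Pifo (0.85 ± 0.23), Cdhr4 (1.67 ± 0.45) and Odf3b (1.20 ± 0.33). Of 25 genes of intraflagellar transport and the basal body, which serve the primary cilia of many cell types as well, 0 were called and the median was −0.03. At an unadjusted p under 0.05, 3 of the 25 were higher (all genes 19%) and 0 lower (all genes 15.1%). The asthma libraries lay above all controls in 7 of the 25 (all genes 22%) and below them in 0 (all genes 18.4%). Ift22, with the smallest p of this list, was at 0.51 ± 0.16 (adjusted p = 0.0598). Of 11 factors of multiciliation none was called (median 0.11), and Trp73, which acts upstream of Foxj1, was at 0.75 ± 0.24 (adjusted p = 0.0602).

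Markers of club cells, the neighbours of ciliated cells, moved with the motile cilia genes in the control libraries and less closely in the other groups. In the controls the mean log2 level of 8 club cell markers was 0.02, −0.22 and 0.20 from the control mean, as for the 70 genes. This order of the controls was not particular to club cells. Goblet cell markers lay at 0.06, −0.36 and 0.29 and cardiac muscle markers at −0.30, −0.42 and 0.72. Alveolar type 2 cell markers had another order (0.07, −0.04 and −0.03). In asthma replicates 1, 2 and 3 club cell markers lay at −0.48, 0.27 and 0.40, so the motile cilia genes stood 0.52, 0.38 and 0.08 above them. By their median instead of their mean, the club cell markers lay at −0.61, −0.12 and 0.29 in these 3 libraries. With BSYQF the gap was 0.45, 0.06 and 0.12. Of the 8 club cell markers 1 rose (Hp, all genes 8.23%), and their median was −0.03. General epithelial markers lay at 0.55, 0.65 and 0.26 in asthma, with 1 of 6 called higher (Epcam, 0.57, all genes 8.23%). Set against these markers, the motile cilia genes differed by −0.51, 0.0002 and 0.22 in asthma replicates 1, 2 and 3. The difference was −0.08, 0.09 and 0.38 with BSYQF. In BSYQF against asthma the general epithelial markers had a median log2 fold change of −0.38. Of the 6, 0 were called and 3 were lower at an unadjusted p under 0.05 (all genes 4.15%). In the asthma libraries summed goblet cell markers were at 595 to 4543 CPM against 93.3 to 141 CPM in control, and all 8 rose (all genes 8.23%). Markers of tissue outside the airway differed between the groups as well. In asthma against control 6 of 6 cardiac muscle markers (median -2.44) and 5 of 6 adipocyte markers (median -4.74) fell (all genes 4.45%). In the same comparison 7 of 8 macrophage markers rose (median 1.98, all genes 8.23%). In BSYQF against asthma all 6 cardiac muscle and all 6 adipocyte markers were higher at an unadjusted p under 0.05 (all genes 3.79%). None of them was called (medians 2.43 and 4.63). The part of airway or tissue content in the values of the motile cilia genes was not tested.

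**Figure D5:**
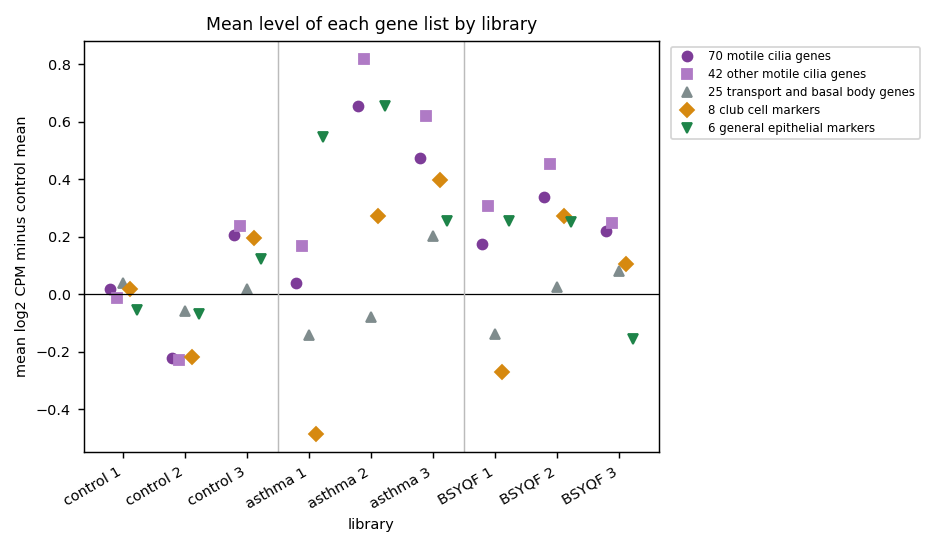
Mean log2 CPM minus the control mean (y axis) of 5 gene lists in each of the 9 libraries (x axis). The 70 motile cilia genes and the 42 others follow each other closely, and club cell markers share their order within the controls but lie lower in asthma replicate 1 (−0.48) and BSYQF replicate 1 (−0.27).

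BSYQF was then set against asthma, for the effect of the formula in diseased lung. No member was called in either direction by edgeR (all genes 0.00678% higher, 0% lower), nor by DESeq2 or limma voom. At an unadjusted p under 0.05, 2 members were lower with BSYQF (2.86%, all genes 4.15%) and 0 higher (all genes 3.79%). They were Rsph14 (-0.69 ± 0.30, adjusted p = 0.619) and Cfap221 (-0.75 ± 0.33, adjusted p = 0.622). Rsph14 had 5.26, 10.1 and 6.498 CPM in asthma and 3.87, 5.05 and 4.53 CPM with BSYQF, without overlap, and it was the only member below all asthma libraries (1.43%, all genes 4.77%), while 0 lay above them (all genes 4.98%). The median log2 fold change of the members was −0.16, with 18 of 70 values above 0 (25.7%, all genes 49.3%). Single libraries moved both: 31 values were above 0 without asthma replicate 2 (median -0.03), 9 without asthma replicate 1 (median -0.33) and 10 without BSYQF replicate 2 (median -0.22). Foxj1 was at -0.33 ± 0.23 (adjusted p = 0.660), Cfap126 at -0.65 ± 0.31 (adjusted p = 0.622), Tekt4 at -0.24 ± 0.28 and Cfap157 at -0.28 ± 0.27. Of these 4 values, that of Cfap126 alone lay more than 2 SE from 0.

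Treated asthmatic lung was last set against normal lung, with the control libraries already used above. No member was called by edgeR (all genes 1.63% higher, 0.0407% lower) or limma voom. By DESeq2 1 member, Cfap157, was called higher (1.43%, all genes 4.60%). At an unadjusted p under 0.05, 7 members were higher (10%, all genes 10.1%) and 0 lower (all genes 5.7%). Values for the genes called in asthma were 1.09 ± 0.28 for Cfap157 (adjusted p = 0.0849), 0.70 ± 0.28 for Tekt4, 0.68 ± 0.28 for Rsph1, 0.65 ± 0.29 for Cfap100, 0.53 ± 0.23 for Foxj1, 0.47 ± 0.31 for Cfap126 and 0.38 ± 0.25 for Dnali1. The last 6 had adjusted p-values of 0.257 to 0.479. The members' median was 0.25, with 53 of 70 values above 0 (75.7%, all genes 49.7%). The BSYQF libraries lay above all controls in 12 members (17.1%, all genes 13%) and below them in 0 (all genes 11.8%). The member mean was 0.18, 0.34 and 0.22 above the control mean in BSYQF replicates 1, 2 and 3, so replicates 2 and 3 were above the highest control (0.20) and replicate 1 just below it. BSYQF replicate 1 held low values of several long genes, such as Dnah5 at 40.4 CPM and Hydin at 14.2 CPM, beside high values of short ones, such as Rsph1 at 63.6 CPM. The authors' deposited tables listed 1 member among 896 genes in this comparison, Cfap157 (1.08), and 0 among 424 genes in BSYQF against asthma.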

How the data were processed

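Per the labels' protocols, lung RNA was isolated with Trizol and 3 µg was made into NEBNext Ultra libraries. STAR, HTSeq, cutadapt, FastQC and DESeq2, with build mm10, are named in the submitters' processing notes, which carry no tool versions here. The sources used here do not give the annotation, the strand setting or the handling of shared reads. Whole-number counts per gene, as deposited by the authors, were the input of every test, and the authors also deposited tables of log2 fold changes and p-values for 3 comparisons, from which the members listed and their log2 fold changes were taken. A further 36 columns of values per library in these tables were not used.

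Counts were filtered with filterByExpr, scaled with TMM (0.914 to 1.07), then modelled for all 3 groups at once by glmQLFit (robust) and glmQLFTest of edgeR 4.0.16 (R 4.3.3), a procedure tested on simulated data. Adjusted p-values are over all 14739 genes tested. The SE is the size of the log2 fold change divided by the square root of F. Log2 levels use a prior count of 2. Alternatives used DESeq2 1.42.0 and limma 3.58.1 among others. Exon lengths and positions are from GENCODE vM21 (GRCm38), where all 70 members matched 1 gene, and window sequences are RefSeq's on GRCm38.p6, a C57BL/6J genome, not BALB/c. Members, lists and tests were chosen with earlier results of these data known. The text names the 8 single genes, those of lowest p per role and comparison, the most abundant per length and those at the count limit, and other genes named were chosen after their values were seen. Checks for identical libraries found 0 pairs.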

Additional observations from a re-analysis of the deposited data

How the results depend on the processing

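In asthma against control, 7 members were called higher (10%, all genes 8.23%). DESeq2 called 14 higher (20%, all genes 12.5%) and limma voom 3 (4.29%, all genes 5.05%). The fit on only the 2 groups compared called 4 (5.71%, all genes 8.99%). DESeq2 size factors or upper quartile scaling in edgeR, no filter on low counts and edgeR's newer dispersion method gave 6 to 8. Those were 8.57% to 11.4% of members, beside 6.54% to 8.62% of all genes. Fits that left out 1 library gave 0 to 11, with fewer libraries in each, while the calls over all genes ranged from 171 to 4262. Cfap157 was called in 6 of these 9 fits and in all 8 other alternatives, and Foxj1, Rsph1, Cfap126, Cfap100, Dnali1 and Tekt4 in 3 of 9 each, with adjusted p-values of up to 0.207. With the replicate number as a block, 1 member (Cfap157) was called higher (1.43%, all genes 6.16%). Same-numbered libraries did not consistently deviate together (correlations −0.26 to 0.34), so the numbers were not taken as a pairing. In BSYQF against control DESeq2 called 1 member (0 in the main analysis). No member was called in BSYQF against asthma, or lower in any comparison, under any of the 17 alternatives. Medians kept their sign in all 17: with 1 library left out they ranged from 0.26 to 0.53, from −0.33 to −0.03 and from 0.20 to 0.35 for asthma against control, for BSYQF against asthma, and for BSYQF against control. Among named genes called neither in the main analysis nor in the alternative, 61 fitted values changed sign. Depth limits the low members: 3 counts correspond to 0.134 to 0.202 CPM, where Dnah14 had 0.27 to 0.86 CPM over the 9 libraries and Mcidas 0.41 to 2.08 CPM.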
